A study of Mus musculus with 8 samples.

Results

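Transcripts of the BCL2 family were followed through treatment with an inhibitor of analog-sensitive GSK3 kinases in mouse embryonic stem cells. The genes were chosen by name: the BH3-only genes Bbc3, Pmaip1, Bcl2l11, Bad and Bmf, the anti-apoptotic genes Mcl1, Bcl2l1 and Bcl2, and the effectors Bax and Bak1. They were chosen with earlier results of these data known. Their counts beside the share of all genes therefore do not test the family as a set. All 10 had values, among 17488 genes with values of 48321 listed. Of these, 9 were among the 13959 genes tested, those whose value averaged 1 or more across the 8 libraries. Bcl2 fell short with a mean of 0.565 and is given by its values.

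The proteins of this family decide whether the outer mitochondrial membrane is permeabilised, the step that releases cytochrome c and sets off caspases. Bax and Bak1 encode the effectors that form the pores, MCL1, BCL-XL (encoded by Bcl2l1) and BCL2 hold them and their activators in check, and the BH3-only proteins release that brake or activate the effectors directly. BH3-only genes are largely controlled through transcription, by p53, FOXO factors and stress-induced factors, while MCL1 is a short-lived protein and GSK3 is known to mark it by phosphorylation for destruction.

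The cells were of the E14 line (strain 129/Ola), and each of the 4 groups had 2 libraries. The GSK3α line lacks its own Gsk3α (-/-) and carries transgenic GSK3alpha-L195G. It was given 5 µM of the bulky kinase inhibitor 3MB-PP1 for 2 h or left untreated. The GSK3β line lacks Gsk3β (-/-) and carries transgenic GSK3beta-L132G, with the same treated and untreated groups. All cells, untreated ones included, had first been held for 6 h in N2B27 medium without serum. Each paralog is represented by 1 line, the labels give no promoter for the transgenes, no vehicle for the untreated cells and no line without a mutant kinase, and nothing says that the libraries of a group were separate cultures. The p-values therefore rest on the spread between these libraries, partly borrowed from other genes, and that spread may be technical.

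The deposited values are estimated read counts that the authors scaled until the third quartile was equal in all libraries, and 21.5 to 32.4 M reads were estimated per library. Between replicate libraries, log2 values of tested genes differed with an SD of 0.118 to 0.143. Gsk3a values were 141 to 160.0 in the GSK3α line and 76.2 to 79.9 in the GSK3β line, and Gsk3b values were 52.7 to 58.2 in the GSK3α line and 235 to 258 in the GSK3β line. All 9 pluripotency markers had values, and their summed value was 6334 to 6537 in the 8 libraries. Within that list 5 of the 9 changed with 3MB-PP1 in the GSK3β line, where 14.9% of all tested genes did. Klf4 (0.59), Esrrb (0.22) and Nanog (0.14) rose on the log2 scale and Tdgf1 (-0.24) and Utf1 (-0.20) fell. The change differed between the lines for Klf4 (0.53, adjusted p = 6.16e-07) and Esrrb (0.25, adjusted p = 0.00258). Of 7 primitive endoderm markers 6 had values. Their sum was 254 to 279 in treated and 164 to 191 in untreated cells of the GSK3β line, nearly all of it Col4a1. It was 212 to 215 in treated and 214 to 217 in untreated cells of the GSK3α line. The factors Gata6, Sox17 and Sox7 had values up to 1.06, 0.673 and 0.833 in any library. Gata4 had 3.94 to 6.21 and Dab2 2.31 to 3.79 over the 8 libraries, and neither passed with 3MB-PP1 in either line. Neural markers (4 of 5 had values) summed to 43.6 to 46.4 in treated and 38.2 to 39.0 in untreated GSK3β cells. Of these Nes rose (0.51, adjusted p = 7.12e-06) and Neurod1 fell (-0.46, adjusted p = 0.00352), with a median log2 change of -0.14 over the list. Trophoblast markers (4 of 5 had values) summed to 6.75 to 8.18 in treated and 4.73 to 5.74 in untreated GSK3β cells. Their means in treated and untreated cells were 2.85 and 0.258 for Cdx2 and 1.47 and 1.17 for Hand1. Those of Krt7 were 2.62 and 3.19, and those of Gcm1 0.525 and 0.617. Cdx2 and Gcm1 were below the minimum for testing, and neither Hand1 nor Krt7 passed. Mesendoderm markers (4 of 5 had values) summed to 15.97 to 17.2 in treated and 13.3 to 14.4 in untreated GSK3β cells, and Gsc rose (0.54, adjusted p = 0.0157). The part of these markers in the changes described for that line was not tested. Between the untreated lines 7 of the 9 pluripotency markers differed, 3 higher and 4 lower in the GSK3β line, where 48.2% of all tested genes differed. The largest of these differences was that of Zfp42 (-0.38, adjusted p = 2.42e-08 in limma). From the other lists T (-1.36), Gata4 (-0.33) and Col4a1 (-0.29) were lower in the untreated GSK3β line. Of 6 fibroblast markers 3 had values and 2 were tested. Thy1 was higher in the untreated GSK3β line (0.54), and Col1a1 did not pass (-0.05). In bulk RNA, fewer cells of a type and less RNA per cell cannot be told apart.

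With 3MB-PP1, 4 of the 9 tested genes fell in the GSK3β line and 0 rose: the BH3-only genes Bbc3, Bcl2l11 and Pmaip1 and the anti-apoptotic gene Mcl1. Among all tested genes 7.44% were lower and 7.49% higher in this comparison (adjusted p below 0.05, limma with Benjamini-Hochberg adjustment over all tested genes). Together these make 14.9%. The members were chosen with earlier results known, so their count beside these shares is not a test of enrichment. With 3MB-PP1 in the GSK3α line Pmaip1 fell and Bmf rose, where 0.881% of all tested genes changed, 0.616% lower and 0.265% higher. The median log2 change of the 9 genes was -0.12 in the GSK3β line, where that of all tested genes was -0.01, and -0.06 in the GSK3α line, where that of all tested genes was 0.01.

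**Figure D1:**
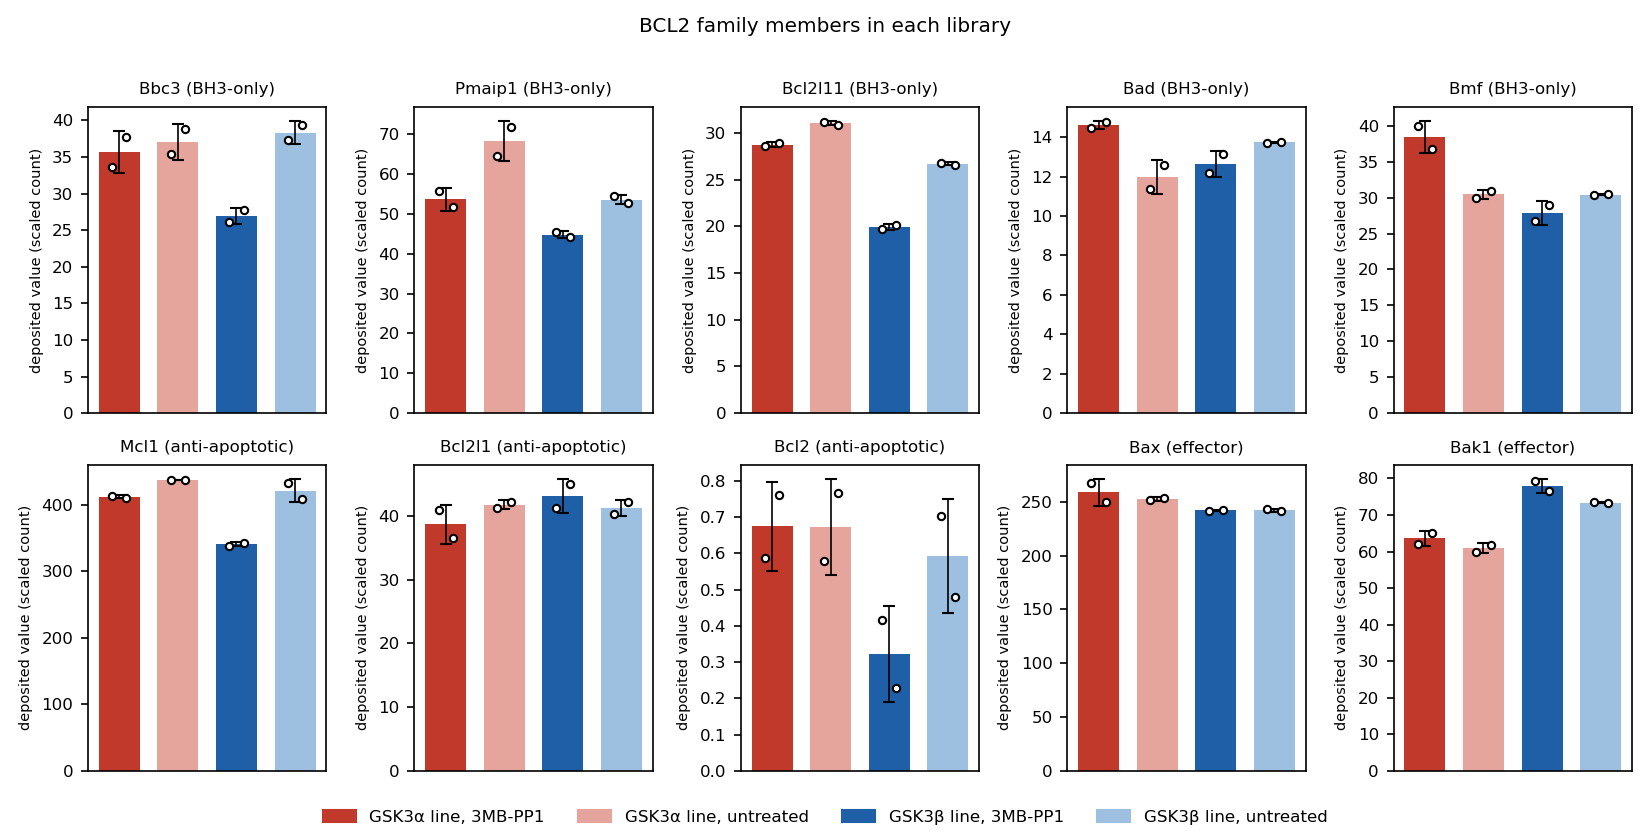
Deposited value of each of the 10 genes (vertical axis, its own scale in each panel) in the 8 libraries; each point is a library and each bar the mean of its group, with 3MB-PP1 left of untreated in each line. Bbc3, Bcl2l11 and Mcl1 sit lowest in the 2 treated libraries of the GSK3β line, and Bmf highest in the 2 treated libraries of the GSK3α line.

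Bbc3 (chr7:16308393-16318205, plus strand, GRCm38) encodes PUMA, a BH3-only protein that binds all anti-apoptotic family members and is a classical p53 and FOXO target. Its values were 26.2 and 27.7 in treated cells of the GSK3β line, against 37.3 and 39.4 in untreated cells. Those of the GSK3α line were 33.6 and 37.7 in treated cells, against 35.4 and 38.8 in untreated cells. The treated GSK3β libraries lay below all other libraries, while the α groups overlapped. Treated and untreated libraries did not overlap for 57.3% of all tested genes in the GSK3β line and 42.0% in the GSK3α line. The mean fell by 29.7% in the GSK3β line, a log2 change of -0.49 ± 0.06 (SE, adjusted p = 1.31e-05), the largest fall among the 9 tested members. Its change in the GSK3α line was -0.06, with a 95% interval of -0.18 to 0.07 (adjusted p = 0.781). The change in the GSK3β line minus that in the GSK3α line was -0.44 on the log2 scale (interval -0.62 to -0.26, adjusted p = 0.00403).

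Bcl2l11 (chr2:128126038-128162547, plus strand) encodes BIM, the BH3-only activator induced by FOXO factors when growth factors are withdrawn and marked for degradation by ERK. Its values were 19.7 and 20.1 in treated cells of the GSK3β line, against 26.8 and 26.6 in untreated cells. Treated cells of the GSK3α line had 28.6 and 28.9, against 31.2 and 30.9 in untreated cells of that line. The groups did not overlap in either line, with the treated libraries the lower ones. The mean fell by 25.5% in the GSK3β line (log2 change -0.41 ± 0.05 SE, adjusted p = 2.05e-05). The change in the GSK3α line was -0.11 (interval -0.22 to 0.00, adjusted p = 0.439). Between the lines the change differed by -0.30 (interval -0.46 to -0.15, adjusted p = 0.0184). It lost its call without replicate 1 or replicate 2 of the treated GSK3α cells (adjusted p = 0.0601 and 0.0740) and without replicate 1 of the treated GSK3β cells (adjusted p = 0.0946).

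The sequence before the start of Bbc3 and Bcl2l11 is shown. Both were picked as known FOXO targets that fell in the GSK3β line, so a FOXO match in their windows is not independent support. Whether FOXO factors had a part in these falls was not tested. RefSeq windows on GRCm38.p6 from 250 bases before to 50 after each start were matched for 9 of the 10 members by symbol (17 windows), Pmaip1 being the other. The FOXO motif GTAAACA, searched on both strands, was found in 3.65% of all 32851 windows and in 2 of the 17 windows of members, namely 1 of Bbc3 and 1 of Bcl2l11. The 250 bases before those starts follow, both on the plus strand at chr2:128125788-128126037 and chr7:16310011-16310260, with the motif in capitals.
Bcl2l11: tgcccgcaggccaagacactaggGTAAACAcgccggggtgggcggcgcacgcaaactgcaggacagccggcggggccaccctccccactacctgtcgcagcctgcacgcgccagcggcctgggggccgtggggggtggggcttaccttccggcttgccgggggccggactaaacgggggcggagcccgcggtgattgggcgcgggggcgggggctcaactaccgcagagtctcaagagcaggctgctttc
Bbc3: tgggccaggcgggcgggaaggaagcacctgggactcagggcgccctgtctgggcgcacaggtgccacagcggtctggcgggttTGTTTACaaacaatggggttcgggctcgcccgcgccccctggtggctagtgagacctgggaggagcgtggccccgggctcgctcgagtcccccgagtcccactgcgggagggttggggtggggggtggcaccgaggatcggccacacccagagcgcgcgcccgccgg
In Bcl2l11 the motif begins 227 bases before the start as written, and in Bbc3 it begins 167 bases before the start as its reverse complement. RefSeq gives 3 starts for Bbc3 and 2 for Bcl2l11, and the windows of the other starts hold no match to the motif. The window of the first Bbc3 start (chr7:16309333-16309582 before it) holds 5 GC boxes (GGGCGG or its reverse complement). The TCF motif ATCAAAG was found in 3.73% of all windows, the cyclic AMP response core TGACGTC in 3.21% and the amino acid response core TGATGCA in 3.15%, and in 0 of the 17 windows of members. GC boxes were in 35.7% of all windows and in 10 of the 17, the CCAAT box in 37.4% and in 6 of the 17, and the E-box CACGTG in 7.15% and in 2 of the 17, which belong to Bax and Bbc3. A match describes letters in a window and does not show binding.

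Pmaip1 (chromosome 18, plus strand) encodes NOXA, a BH3-only protein that binds MCL1 and speeds its loss, and it is a p53 and ATF4 target. Its values were 45.4 and 44.3 in treated cells of the GSK3β line, against 54.4 and 52.7 in untreated cells. Treated cells of the GSK3α line had 55.7 and 51.6, against 64.6 and 71.8 in untreated cells of that line. Treated libraries lay below untreated ones in both lines. The log2 change was -0.25 ± 0.05 (SE, adjusted p = 0.00185) in the GSK3β line and -0.34 ± 0.05 (SE, adjusted p = 0.00195) in the GSK3α line, which makes Pmaip1 the member that fell in both. Of all tested genes 0.344% did so. Between the lines the change differed by 0.09 (interval -0.06 to 0.24, adjusted p = 0.532). Its call in the GSK3α line was lost without replicate 2 of the treated cells (adjusted p = 0.0831), and a limma fit without a mean-variance trend ended it in the GSK3α line (adjusted p = 0.224) and the GSK3β line (adjusted p = 0.0658).

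Bmf (chr2:118528757-118549687, minus strand) encodes a BH3-only protein held at the cytoskeleton and known from loss of attachment. Its values were 39.97 and 36.8 in treated cells of the GSK3α line, against 30.0 and 30.9 in untreated cells. In the GSK3β line they were 26.7 and 29.0 in treated cells, against 30.4 and 30.5 in untreated cells. The treated α libraries were the highest of all and the treated β libraries the lowest. Its log2 change in the GSK3α line was 0.32 ± 0.06 (SE, adjusted p = 0.00591). In the GSK3β line it was -0.12 (interval -0.24 to -0.01, adjusted p = 0.147). The difference between the lines was -0.45 (interval -0.61 to -0.28, adjusted p = 0.00149). The call in the GSK3α line was lost without replicate 1 of its untreated cells (adjusted p = 0.0644), without replicate 1 of its treated cells (adjusted p = 0.215) and in the fit without a trend (adjusted p = 0.224).

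Bad (chr19:6941861-6951899, plus strand) encodes a BH3-only protein that survival kinases silence by phosphorylation. Its values were 14.5 and 14.7 in treated cells of the GSK3α line, against 11.4 and 12.6 in untreated cells, and 12.2 and 13.1 in treated cells of the GSK3β line, against 13.7 in both untreated libraries. The treated libraries were above the untreated ones in the GSK3α line and below them in the GSK3β line. The log2 changes were 0.27 (interval 0.11 to 0.42, adjusted p = 0.119) and -0.11 (interval -0.27 to 0.04, adjusted p = 0.352), and neither passed the test. Their difference, -0.38 (interval -0.60 to -0.16), had an adjusted p of 0.0376, and when single libraries were left out it kept its call only without replicate 2 of the untreated GSK3α cells. Without any other the adjusted p was 0.0510 to 0.194. Of the exon bases of Bad in basic protein-coding GENCODE M21 transcripts, 21.9% are shared with Gpr137 on the opposite strand. The strand setting of the counting is not given in the sources used here.

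Mcl1 (chr3:95658788-95663176, plus strand) encodes the anti-apoptotic protein on which embryonic stem cells and early embryos depend. Its values were 338 and 343 in treated cells of the GSK3β line, against 433 and 409 in untreated cells. The GSK3α line had 413 and 409.8 in treated cells, against 437 in both untreated libraries. The treated β libraries were below every other library. The mean fell by 19.1% in the GSK3β line (log2 change -0.31 ± 0.03 SE, adjusted p = 1.14e-06), on 9827 to 12754 estimated reads per library. The change in the GSK3α line was -0.09 (interval -0.15 to -0.02, adjusted p = 0.244). Its difference between the lines was -0.22 (interval -0.31 to -0.13, adjusted p = 0.00439). The 250 bases before its RefSeq start (chr3:95658471-95658720, plus strand, GRCm38.p6) hold 1 GC box, in capitals as its reverse complement and beginning 20 bases before the start, and are shown as the window of the most abundant member that fell.
Mcl1: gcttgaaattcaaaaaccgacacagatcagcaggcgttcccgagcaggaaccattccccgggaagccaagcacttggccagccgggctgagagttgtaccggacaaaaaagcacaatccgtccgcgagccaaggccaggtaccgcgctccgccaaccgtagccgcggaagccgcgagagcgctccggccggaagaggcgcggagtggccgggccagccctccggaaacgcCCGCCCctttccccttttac

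The other anti-apoptotic genes did not pass the test. Bcl2l1 (chr2:152780668-152831728, minus strand), which encodes BCL-XL, had values of 41.2 and 45.0 in treated cells of the GSK3β line, against 40.3 and 42.1 in untreated cells, and 40.9 and 36.5 in treated cells of the GSK3α line, against 41.2 and 42.2 in untreated cells. The log2 changes were 0.06 (interval -0.05 to 0.18, adjusted p = 0.505) in the GSK3β line and -0.11 (interval -0.22 to 0.01, adjusted p = 0.468) in the GSK3α line. Bcl2 (chr1:106538178-106714274, minus strand) was near the floor, with 8 to 21.0 estimated reads per library. Its values were 0.416 and 0.230 in treated cells of the GSK3β line, against 0.704 and 0.481 in untreated cells, and 0.588 and 0.761 in treated cells of the GSK3α line, against 0.578 and 0.766 in untreated cells. With no filter on low values its log2 change was -0.27 (adjusted p = 0.230) in the GSK3β line, which did not pass, and on the log2(value + 1) scale the change of a gene this low is understated.

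Neither effector changed past the threshold in either line. Bax (chr7:45461697-45466898, minus strand) had values of 241 and 242 in treated cells of the GSK3β line, against 243 and 241 in untreated cells, and 267 and 250.005 in treated cells of the GSK3α line, against 252 and 254 in untreated cells. Its log2 change in the GSK3β line had an interval of -0.07 to 0.07 (adjusted p = 0.990) and that in the GSK3α line one of -0.04 to 0.10 (adjusted p = 0.756). Bak1 (chr17:27019810-27029009, minus strand) had values of 79.2 and 76.6 in treated cells of the GSK3β line, against 73.6 and 73.3 in untreated cells, and 62.1 and 65.1 in treated cells of the GSK3α line, against 59.9 and 61.9 in untreated cells. The treated libraries were the higher ones in both lines, with intervals of 0.00 to 0.17 (adjusted p = 0.165) and -0.02 to 0.14 (adjusted p = 0.589). Bak1 exons overlap the opposite-strand gene Ggnbp1 in up to 18.3% of their bases. Bax shares 22.1% of its exon bases with Gm45808 on the same strand, a gene without values, and how such reads were counted is not given.

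**Figure D2:**
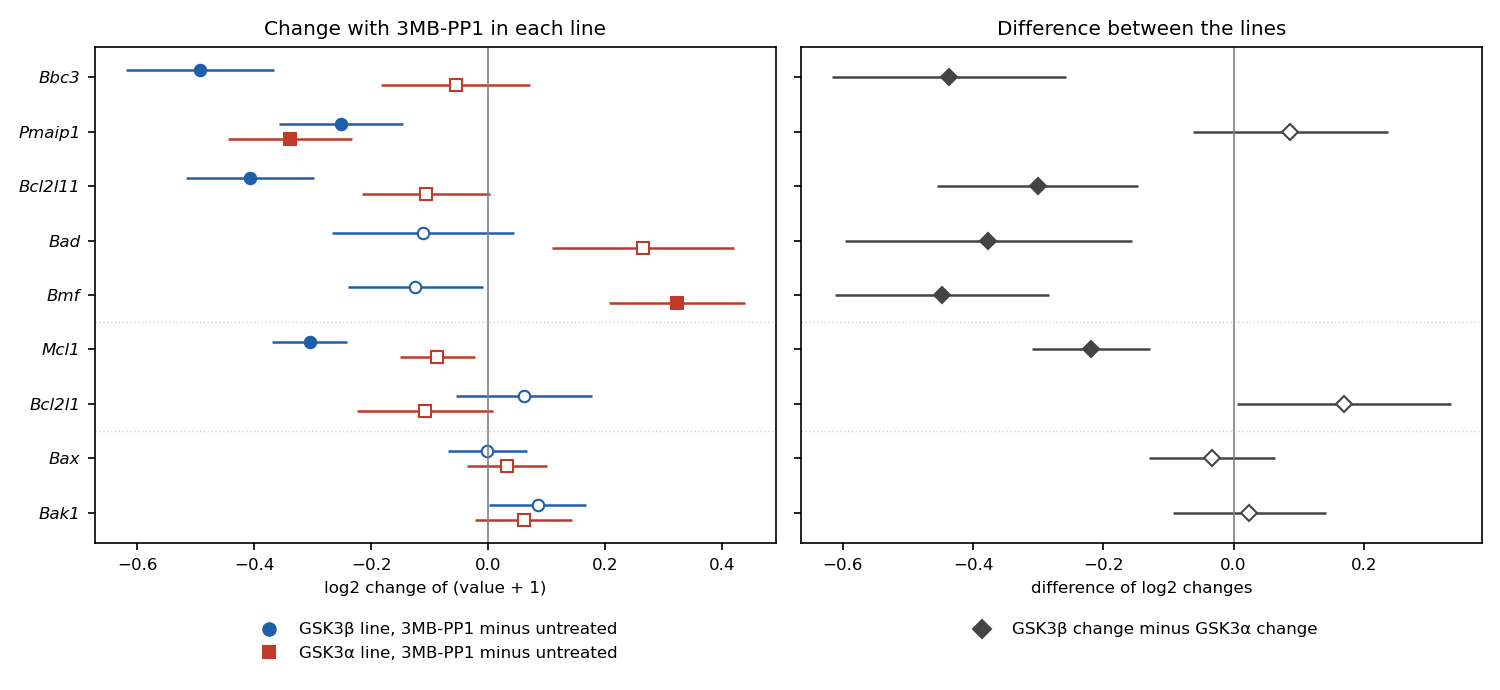
Left, log2 change with 3MB-PP1 against untreated cells of each tested member in the GSK3β line (blue circles) and the GSK3α line (red squares); right, the difference of these changes, GSK3β minus GSK3α line. Bars are 95% intervals and filled symbols are past the adjusted p threshold of 0.05: Bbc3, Bcl2l11, Mcl1 and Pmaip1 in the GSK3β line, Pmaip1 and Bmf in the GSK3α line, and Bbc3, Bcl2l11, Mcl1, Bad and Bmf for the difference.

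Set against each other, the lines differed in their response for 5 of the 9 tested members, all with the lower change in the GSK3β line. Among all tested genes 6.53% differed, 2.90% with a lower and 3.62% with a higher change in that line. As the members were chosen with earlier results known, these shares do not test them as a set either. Bbc3, Bcl2l11 and Mcl1 fell in the GSK3β line with no call in the other, Bmf rose in the GSK3α line with no call in the other, and for Bad neither change passed. By role, 4 of 5 BH3-only genes, 1 of 2 tested anti-apoptotic genes and 0 of 2 effectors differed, with median log2 differences of -0.38, -0.02 and -0.00 beside -0.01 over all tested genes. None of the 5 differences passed in the fit without a trend, where the adjusted p was 0.113 for Bbc3, 0.0611 for Bcl2l11, 0.143 for Mcl1, 0.0940 for Bad and 0.0696 for Bmf. Single libraries decided 2 of them, those of Bcl2l11 and Bad, as given above.

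The untreated lines also differed. Pmaip1 was lower in the untreated GSK3β line than in the untreated GSK3α line (log2 difference -0.34 ± 0.05 SE, adjusted p = 1.91e-05), as was Bcl2l11 (-0.21 ± 0.05, adjusted p = 0.00278), while Bak1 was higher (0.27 ± 0.04, adjusted p = 2.15e-05). Bad was higher by 0.18 at an adjusted p of 0.0489, a call that was kept only without replicate 2 of the untreated GSK3α cells when single libraries were left out. Bbc3, Mcl1, Bcl2l1, Bax and Bmf did not pass, with log2 differences between -0.06 and 0.05. This makes 4 of 9 members, 2 higher and 2 lower, and 48.2% of all tested genes differed between the untreated lines, 22.3% higher and 25.9% lower, so the share among the members is near the background. Without replicate 1 of the untreated GSK3β cells Mcl1 also passed, with a log2 difference of -0.10 (adjusted p = 0.0222). Each line is a single one, and a difference between paralogs cannot be told apart from one between lines.

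**Figure D3:**
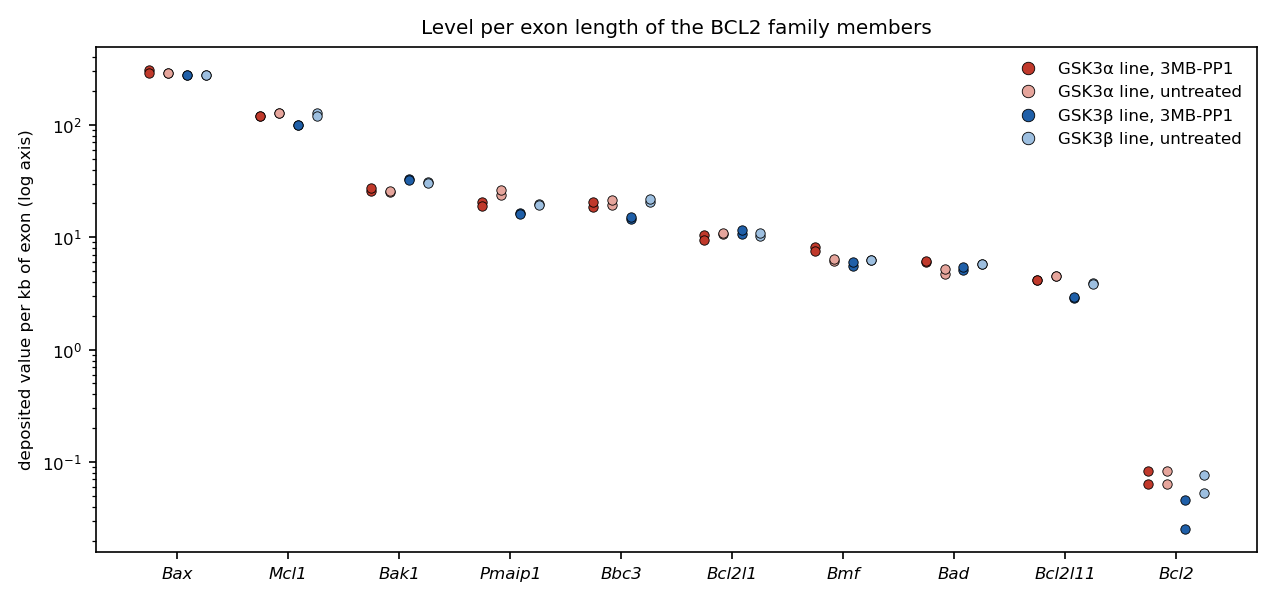
Level of each member per kilobase of exon sequence (log axis) in the 8 libraries, with 3MB-PP1 left of untreated in each line. Bax was at the top in every library and Mcl1 next to it, while Bcl2 was far below the other 9.

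Levels between genes were compared as the deposited value per kilobase of exon, over the union of exons of protein-coding GENCODE M21 transcripts tagged basic. That union was 867 bases for Bax, and the annotation used for counting is not given, so the order depends on this choice of transcripts. The effector Bax had the highest level, 287 on average over the 8 libraries (range 278 to 308), followed by Mcl1 at 118 (98.9 to 128). Bak1 followed at 28.9 (25.1 to 33.2), Pmaip1 at 20.2 (16.2 to 26.3), Bbc3 at 19.0 (14.4 to 21.7) and Bcl2l1 at 10.6 (9.39 to 11.6). The lowest levels were those of Bmf at 6.58 (5.53 to 8.27), Bad at 5.53 (4.76 to 6.16), Bcl2l11 at 3.86 (2.85 to 4.52) and Bcl2 at 0.0617 (0.0251 to 0.0836). The ranges of Bak1 and Pmaip1, of Pmaip1 and Bbc3, and of Bmf and Bad overlapped, and the other neighbours in this order were apart in every library. Among anti-apoptotic genes, Mcl1 transcript levels were thus above those of Bcl2l1 and Bcl2 in all 8 libraries. The order of Bbc3 and Pmaip1 differed between groups of the GSK3β line: with 3MB-PP1 Pmaip1 (16.4) was above Bbc3 (14.9), and in untreated cells Bbc3 (21.1) was above Pmaip1 (19.6), with no overlap in either group.

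The remaining relatives moved in both directions in the GSK3β line, with 3 of 10 tested genes higher and 1 lower. Of all tested genes 7.49% were higher and 7.44% lower there. Hrk, which encodes the BH3-only protein Harakiri, rose to 4.08 and 3.73 in treated cells, against 2.27 and 2.40 in untreated cells (log2 change 0.56, adjusted p = 0.00301). Its change was -0.20 in the GSK3α line (adjusted p = 0.531), and the difference between the lines was 0.76 (adjusted p = 0.00953), opposite in sign to the 5 differences that passed among the members. Both calls of Hrk were lost without replicate 1 of the treated GSK3β cells (adjusted p = 0.0614 and 0.0715). Bnip3, which encodes a mitophagy receptor with a BH3-like stretch, fell to 25.4 and 26.7 in treated cells of the GSK3β line, against 43.5 and 37.6 in untreated cells (log2 change -0.62, adjusted p = 4.05e-07), and its change was -0.22 in the GSK3α line (adjusted p = 0.0801). Bcl2l14 rose by 0.39 and Bid, a BH3-only protein cut by caspase 8, by 0.15 on the log2 scale (adjusted p = 0.00587 and 0.0326). Without replicate 1 of the treated GSK3β cells the adjusted p was 0.148 for Bcl2l14 and 0.0786 for Bid, and Bid was also lost without any of 3 other libraries. In the GSK3α line 0 of the 10 passed in limma, where 0.881% of all tested genes did. The unadjusted p was below 0.05 for 1 of the 10 and for 1648 of the 13959 tested genes. The median log2 change of the 10 was 0.04 in the GSK3β line and 0.06 in the GSK3α line. Between the untreated lines 1 was higher and 4 were lower in the GSK3β line, near the 48.2% of all tested genes that differed, led by Bnip3 (-0.53), Bcl2l14 (0.37), Bcl2l12 (-0.36) and Bcl2l2 (-0.26). The call of Bcl2l2 was lost without replicate 2 of the untreated GSK3α cells (adjusted p = 0.149) or replicate 1 of the untreated GSK3β cells (adjusted p = 0.186).

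Downstream of the mitochondria, 1 of 19 genes of the apoptosome, caspases and their inhibitors changed in the GSK3β line. Of all tested genes 14.9% did. Birc5, which encodes the caspase inhibitor family member survivin, fell to 164 and 171 in treated cells, against 187 and 176 in untreated cells (log2 change -0.12, adjusted p = 0.0383). This call was lost without replicate 1 of the treated GSK3β cells (adjusted p = 0.336) and without replicate 1 of the untreated ones (adjusted p = 0.315). In the GSK3α line 0 of the 19 passed in limma, where 0.881% of all tested genes did. The unadjusted p was below 0.05 for 0 of the 19 and for 1648 of the 13959 tested genes. For the difference between the lines 0 of the 19 passed, where 6.53% of all tested genes did. For that difference the unadjusted p was below 0.05 for 2 of the 19 and for 2928 of the 13959 tested genes. The median log2 change of the 19 was -0.02 in the GSK3β line and 0.02 in the GSK3α line. The untreated lines differed for 9 of the 19, a share near the 48.2% of all tested genes, led by Casp8 (0.52), Endog (0.34), Ripk1 (0.30) and Birc3 (-0.29). The call of Endog was lost without replicate 2 of the untreated GSK3α cells (adjusted p = 0.373) and without replicate 1 of the untreated GSK3β cells (adjusted p = 0.110), and that of Birc3 was lost without any single one of the 8 libraries (adjusted p = 0.0522 to 0.199).

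Among 13 transcriptional regulators of BH3-only genes, 2 rose and 4 fell in the GSK3β line, where 14.9% of all tested genes changed. Ddit3, which encodes the stress factor CHOP, had values of 21.8 and 20.8 in treated cells, against 11.8 and 12.2 in untreated cells (log2 change 0.78, adjusted p = 2.14e-06). Atf4, the integrated stress response factor upstream of it, had values of 230.1 and 237 in treated cells, against 189 and 189.9 in untreated cells (0.30, adjusted p = 3.25e-06). Myc fell to 20.1 in both treated libraries, against 37.4 and 37.2 in untreated cells (-0.86, adjusted p = 4.79e-08). Foxo1 fell to 24.6 and 25.9 in treated cells, against 31.3 and 29.8 in untreated cells (-0.27, adjusted p = 0.00267), a call lost without replicate 1 of the treated cells (adjusted p = 0.0591). Smaller falls past the threshold were those of Mdm2 (-0.21, adjusted p = 0.000131), the p53 ligase, and Foxo4 (-0.20, adjusted p = 0.00807). Trp53 itself changed by 0.02 (interval -0.06 to 0.09, adjusted p = 0.797) and Foxo3 by -0.05 (interval -0.12 to 0.03, adjusted p = 0.397), and these last 4 genes were named after their values were seen.

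In the GSK3α line 2 of these regulators rose and 1 fell, where 0.881% of all tested genes changed. Atf4 had values of 236 and 230.2 in treated cells, against 199 and 211 in untreated cells (log2 change 0.18, adjusted p = 0.00916), E2f1 changed by 0.26 (adjusted p = 0.0208), and Myc fell to 26.3 and 28.1 in treated cells, against 34.7 and 42.0 in untreated cells (-0.48, adjusted p = 0.00154). The limma fit without a trend ended all 3 calls (adjusted p = 0.278 for Atf4, 0.247 for E2f1 and 0.224 for Myc). Without replicate 1 of the treated GSK3α cells all 3 calls were lost (adjusted p = 0.225 for Atf4, 0.303 for E2f1 and 0.0724 for Myc), and those of Atf4 and E2f1 were also lost without replicate 2 of these cells (0.0816 and 0.144) and without an untreated library each, replicate 1 for Atf4 (0.123) and replicate 2 for E2f1 (0.199). The difference between the lines passed for Ddit3 (0.51, adjusted p = 0.0124), Myc (-0.38, adjusted p = 0.0208), Trp73 (-0.32, adjusted p = 0.0212) and E2f1 (-0.27, adjusted p = 0.0353), each of which was lost without replicate 1 of the treated GSK3β cells (adjusted p = 0.0805, 0.0734, 0.155 and 0.107) and without at least 2 of the other libraries. Of all tested genes 6.53% passed for the difference between the lines. The untreated lines differed for 6 of 13, near the 48.2% of all tested genes, among them Foxo4 (0.93), Jun (0.39), Ddit3 (0.38) and Foxo3 (-0.17).

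Of 16 tested p53 targets outside the family, 1 rose and 5 fell in the GSK3β line, where 7.49% of all tested genes were higher and 7.44% lower. Cdkn1a, which encodes the cell cycle inhibitor p21, rose to 76.5 and 72.2 in treated cells, against 41.6 and 36.4 in untreated cells (log2 change 0.92, adjusted p = 8.36e-10), so it moved opposite to the p53 targets Bbc3 and Pmaip1. Those that fell were led by Btg2 (-0.39, adjusted p = 7.85e-07), Eda2r (-0.33, adjusted p = 2.54e-06) and Plk2 (-0.22, adjusted p = 0.000923), the last of which was lost in the fit without a trend (adjusted p = 0.0535). In the GSK3α line 0 of the 16 passed in limma, where 0.881% of all tested genes did. The unadjusted p was below 0.05 for 7 of the 16 and for 1648 of the 13959 tested genes. Cdkn1a changed by -0.22 in that line (adjusted p = 0.0547). The difference between the lines passed for 3 of the 16, where 6.53% of all tested genes did. It was 1.14 for Cdkn1a (adjusted p = 4.84e-08), -0.24 for Btg2 (adjusted p = 0.0102) and -0.23 for Eda2r (adjusted p = 0.0109). Without replicate 1 of the treated GSK3β cells the last 2 were lost (adjusted p = 0.0906 and 0.0908), and that of Eda2r was also lost without replicate 2 of the treated GSK3α cells (adjusted p = 0.0728). The median log2 change of the 16 was -0.04 in the GSK3β line and -0.05 in the GSK3α line. Between the untreated lines 1 was higher and 9 were lower in the GSK3β line, where 48.2% of all tested genes differed, among them Cdkn1a (-0.85), Aen (-0.67), Eda2r (0.65) and Trp53inp1 (-0.39).

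Of 9 genes that encode ubiquitin ligases and deubiquitinases acting on MCL1 and BIM, 8 were tested. In limma 0 of the 8 changed past the threshold in the GSK3β line or the GSK3α line, and 0 had an unadjusted p below 0.05 in either. Of all tested genes 14.9% passed in the GSK3β line and 0.881% in the GSK3α line. The unadjusted p was below 0.05 for 3977 of the 13959 tested genes in the GSK3β line and for 1648 in the GSK3α line. For the difference between the lines 0 of the 8 passed, where 6.53% of all tested genes did. For that difference the unadjusted p was below 0.05 for 1 of the 8 and for 2928 of the 13959 tested genes. The untreated lines differed for 5 of the 8, where 48.2% of all tested genes differed, with log2 differences of -0.31 for Btrc, -0.30 for Skp1a, -0.14 for Usp9x and 0.11 for Huwe1 among them. The call of Huwe1 was lost without replicate 2 of the untreated GSK3α cells (adjusted p = 0.112) or replicate 1 of the untreated GSK3β cells (adjusted p = 0.0906) and in the fit without a trend (adjusted p = 0.0928). That of Usp9x was lost with quantile normalization (-0.07, adjusted p = 0.104) and without a trend (adjusted p = 0.0569).

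**Figure D4:**
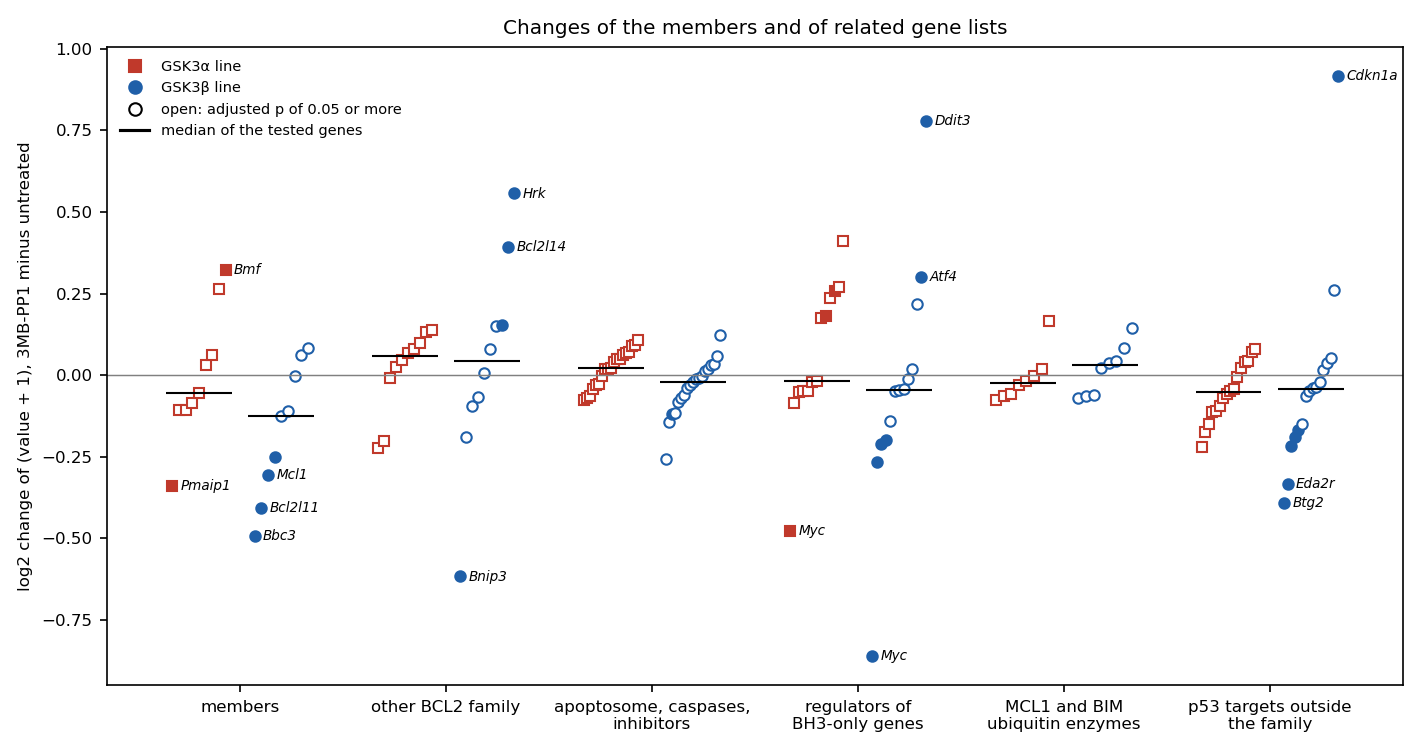
Log2 change with 3MB-PP1 against untreated cells (vertical axis) for each tested gene of the members and the 5 related lists, in the GSK3α line (squares, left of each pair) and the GSK3β line (circles, right). Filled symbols are past the adjusted p threshold of 0.05 and lines are medians; Cdkn1a, Ddit3 and Hrk stand at the upper end and Myc and Bnip3 at the lower end in the GSK3β line.

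For the 4 members that fell in the GSK3β line, the genes of most similar pattern were taken as those with the smallest root mean square difference of centred log2 values over the 8 libraries. For Bbc3 they were Gm8113 (0.0550), Lrrn1 (0.0584) and Hbp1 (0.0673), where the root mean square difference of Bbc3 from its own mean was 0.204. For Bcl2l11, at 0.233 from its own mean, they were Meioc (0.0392), Mmp14 (0.0418) and Nfatc4 (0.0419). For Mcl1, at 0.141, they were Sertad1 (0.0270), Mat2b (0.0321) and Cdca5 (0.0338). For Pmaip1, at 0.216, they were Cdc42ep1 (0.0553), Mmel1 (0.0699) and Dusp4 (0.0756). Among these Dusp4 passed with 3MB-PP1 in both lines, and Cdc42ep1 and Mmel1 passed in neither. The 8 libraries share their scaling and the differences between the lines, so this describes likeness over 4 groups.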

How the data were processed

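Total RNA of 8 libraries of mouse ES cells was sequenced after a TruSeq RNA preparation, per the labels. The submitters' processing notes name TopHat2, Partek and the build mm10, and versions, gene annotation and strand setting are not given in the sources used here. The deposited table holds signal values: read counts that the authors estimated per gene and scaled so that the third quartile was equal in all libraries to within 0.0548%. The smallest value of a library was taken as 1 read; 63.0 to 67.2% of values up to 20 reads were then whole to within 0.1, so the count model was not used. Dividing each library's sum by its smallest value gave 21.5 to 32.4 M reads. Testing took in the 13959 genes whose value averaged 1 or more, and 3529 others with values were left out.

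Values were used as log2(value + 1), which understates the change of low genes. The test was limma-trend (limma 3.58.1, R 4.3.3), two-sided, with 1 mean for each of 4 groups, 1 shared spread with 4 residual degrees of freedom, and Benjamini-Hochberg adjustment over all tested genes at 0.05. The 4 comparisons set 3MB-PP1 against untreated cells within the GSK3α and within the GSK3β line, the β change against the α change, and the untreated lines against each other. The median SE was 0.0634, and 0.0897 for the difference. Intervals are at 95%. The script was tested on simulated data.

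The members and lists were chosen with earlier results of these data known. All members were named, of each other list up to 4 genes past the threshold per comparison by size of change, and for 4 members the 3 genes of most similar pattern. Alternatives were other scalings, pseudocounts, filters, variance fits and replicate blocks, and leaving out each library. Gene positions and exon lengths are from GENCODE M21 and the windows before gene starts from RefSeq (GRCm38.p6). Of the genes of the caspase list, 2 are not reported here. Of the list genes, Bcl2a1a, Bcl2a1b and Bcl2a1d had no values, and Bcl2l10, Bcl2l15, Trim17 and Fas were below the minimum.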

Additional observations from a re-analysis of the deposited data

Results flagged for a closer look

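The following changes differed between the lines by a test of the difference itself, the limma contrast of the GSK3β change minus the GSK3α change (log2 scale, Benjamini-Hochberg adjusted p). Among the members these were Bmf (-0.45, adjusted p = 0.00149), Bbc3 (-0.44, adjusted p = 0.00403), Bad (-0.38, adjusted p = 0.0376), Bcl2l11 (-0.30, adjusted p = 0.0184) and Mcl1 (-0.22, adjusted p = 0.00439). In the related lists the change was higher in the GSK3β line for Cdkn1a (1.14), Hrk (0.76) and Ddit3 (0.51), and lower for Bnip3 (-0.39), Myc (-0.38), Trp73 (-0.32), E2f1 (-0.27), Btg2 (-0.24) and Eda2r (-0.23). Of these 9 list genes, Bnip3 and Cdkn1a kept the call whichever single library was left out, and the other 7 lost it in at least 1 case. With 2 libraries in each group, no library could be tested as standing apart from the rest of its group.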

How the results depend on the processing

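With 2 libraries a group, the spread rests on 4 residual degrees of freedom and on what limma borrows from other genes. Without a mean-variance trend, the calls fell to 0 members and 3 genes in the GSK3α line, 3 members and 980 genes in the GSK3β line, 0 members and 133 genes for the difference, and 4 members and 5762 genes between the untreated lines, where the values reported were 2 and 123, 4 and 2084, 5 and 911, and 4 and 6723. Of the named list genes, Cdkn1a and Hrk kept their difference between the lines in that fit. In the GSK3β line Birc5, Bcl2l14, Bid and Plk2 lost their calls there (adjusted p = 0.215, 0.0566, 0.170 and 0.0535). Atf4, E2f1 and Myc lost theirs in the GSK3α line, as given above.

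Leaving out each library in turn gave 1 to 2 members and 16 to 186 genes in the GSK3α line, 4 to 4 members and 864 to 2277 genes in the GSK3β line, 3 to 5 members and 353 to 1339 genes for the difference, and 3 to 4 members and 5669 to 6554 genes between the untreated lines. The fewest genes were called without replicate 1 of the treated cells of the line concerned: 16 in the GSK3α line, and 864 in the GSK3β line and 353 for the difference without that of the GSK3β line. In the GSK3α line the count was 25 without replicate 2 of the treated cells, 55 and 60 without replicates 1 and 2 of the untreated cells, and 186 without either untreated GSK3β library. In the GSK3β line it was 1181 without replicate 1 of the untreated cells, and for the difference 566 without that library and 450 and 472 without replicates 1 and 2 of the treated GSK3α cells. In the GSK3β line Bbc3 (-0.53 to -0.45), Bcl2l11 (-0.42 to -0.39), Mcl1 (-0.35 to -0.26) and Pmaip1 (-0.27 to -0.23) kept their calls throughout.

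A block for the replicate number within each line gave 2, 4, 4 and 3 members and 85, 1877, 763 and 5191 genes in the same order of comparisons. The numbers do not pair the samples: deviations of same-numbered libraries had correlations of -0.04 to 0.03. Besides Bad, no member's call changed with the block, while those of 5 list genes did (Birc5 in the GSK3β line, and Bcl2l2, Jun, Usp9x and Birc3 between the untreated lines, adjusted p = 0.0626, 0.0572, 0.0893, 0.0722 and 0.168). Bad lost its difference between the lines with the block (adjusted p = 0.0519) and with quantile normalization (adjusted p = 0.0605). Its difference between the untreated lines was lost with the block (adjusted p = 0.110), a pseudocount of 5 (0.0514), no filter (0.0598) and only the libraries compared (0.0828).

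Signs turned only for changes that did not pass in any fit. Without 1 library, Bbc3 ranged from -0.14 to 0.0245 (also 0.0102) and Bax from -0.0154 to 0.0809 in the GSK3α line, and Bax from -0.00725 to 0.00544 (also 0.00272) in the GSK3β line. For the difference Bax ranged from -0.0818 to 0.0145 and Bak1 from -0.00975 to 0.0574 (also -0.000375). Between the untreated lines Bbc3 ranged from -0.0185 to 0.11, Bcl2l1 from -0.0476 to 0.0135 and Bmf from -0.0223 to 0.0209 (also 0.000152). With median-of-ratios scaling Bax gave 0.00627 in the GSK3β line, and Bcl2l1 0.000342 and Bmf 0.0166 between the untreated lines, where Bmf gave 0.00175 with quantile normalization. No scaling put the median of all genes further than 0.02 from 0.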
